A study of Homo sapiens with 3 samples.

Results

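A stress granule gathers stalled mRNAs with proteins that bind RNA, and such proteins hold the granule together. Ribosome peaks were examined on the genes of 10 such proteins, G3BP1, G3BP2, CAPRIN1, ATXN2, ATXN2L, PABPC1, PABPC4, FMR1, FXR1 and FXR2, which were listed by name as components of the granules that the RNA helicase DDX3X enters. A peak counted for a gene when the RefSeq transcript in its annotation belonged to that gene, and otherwise when the list named the gene. Of the 10 genes, 8 held a peak in at least 1 list, out of 3796 genes with a peak in any list. The paralogs G3BP1 and G3BP2 form the scaffold of the granule, and CAPRIN1 binds them there. ATXN2 and its paralog ATXN2L bind the poly(A)-binding proteins PABPC1 and PABPC4, which coat the tails of mRNAs. FMR1 encodes FMRP, a repressor of translation, and FXR1 and FXR2 encode its paralogs.

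The data came from ribosome profiling, which sequences the mRNA fragments that ribosomes shield from nuclease, in HEK293T, an established line of human embryonic kidney origin. The cells were transiently transfected for 24 h with an empty vector, with FLAG-tagged WT DDX3X or with FLAG-tagged DDX3X G325E, a substitution found in medulloblastoma, and all were grown, drug-treated and harvested alike. Per the labels, harringtonine (2 µg/ml for 90 s) was given before cycloheximide (100 µg/ml), whereas the study's methods name cycloheximide alone. There was 1 library for each construct and thus no replicate, so no difference below could be set against the spread between cultures, and no test was run. No source describes removal of the endogenous DDX3X of the cells.

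The lists held 11219 peaks for vector, 19920 for WT and 15680 for G325E, with no height or read count, so counts are given per 10000 peaks of a list. The study's supplement reports the most mapped reads without duplicates for WT, then vector, then G325E. Counts were not scaled by these reads, and the part of read depth in peaks found in 1 list alone was not tested. Intervals are exact Poisson or Wilson intervals at 95% that cover counting error only, and neighbouring peaks of a gene are not independent. Peak numbers ran in order of position, and 14.8% of them were missing from the vector list and 13.5% from the WT list, against 0 in G325E. DDX3X, the gene in the constructs, held 0 peaks in vector, 32 in WT and 9 in G325E. The labels call the cells neuronal. Of 11 neuronal markers, NEFL, NEFM and TUBB3 held peaks in all 3 lists (31, 35 and 51 in sum), and the other 8, among them MAP2, SYN1, RBFOX3 and DCX, held 0. Of 5 epithelial or mesenchymal markers, VIM held 18, 20 and 19 peaks, KRT8 and KRT18 held 1 and 11 in WT alone, and CDH1 and EPCAM held 0.

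The 10 genes together held 26 peaks in vector, 42 in WT and 52 in G325E, which is 23.2, 21.1 and 33.2 per 10000. Peaks lay on 5 of the genes in vector, on 7 in WT and on 7 in G325E. G3BP1, CAPRIN1, PABPC1, FMR1 and FXR1 held peaks in all 3 lists, so 62.5% of the 8 genes with a peak were present throughout, compared with 37.9% of all genes with a peak. The share rests on only 8 genes. FXR1 counts in it through the RefSeq table alone, and FMR1 in vector and WT only through peaks listed on the opposite strand. ATXN2L was present in G325E alone and G3BP2 in WT alone. ATXN2 and PABPC4 held 0 peaks in every list, which allows up to 3 peaks, or 2.67 per 10000 in vector, 1.51 in WT and 1.91 in G325E. The exact Poisson upper limits were 3.29, 1.85 and 2.35 per 10000. CAPRIN1 was the most heavily marked member over the 3 lists, and ATXN2L was the most heavily marked in any 1 list, at rank 69 of the 2424 genes with a peak in G325E, where the median gene held 5.

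**Figure D1:**
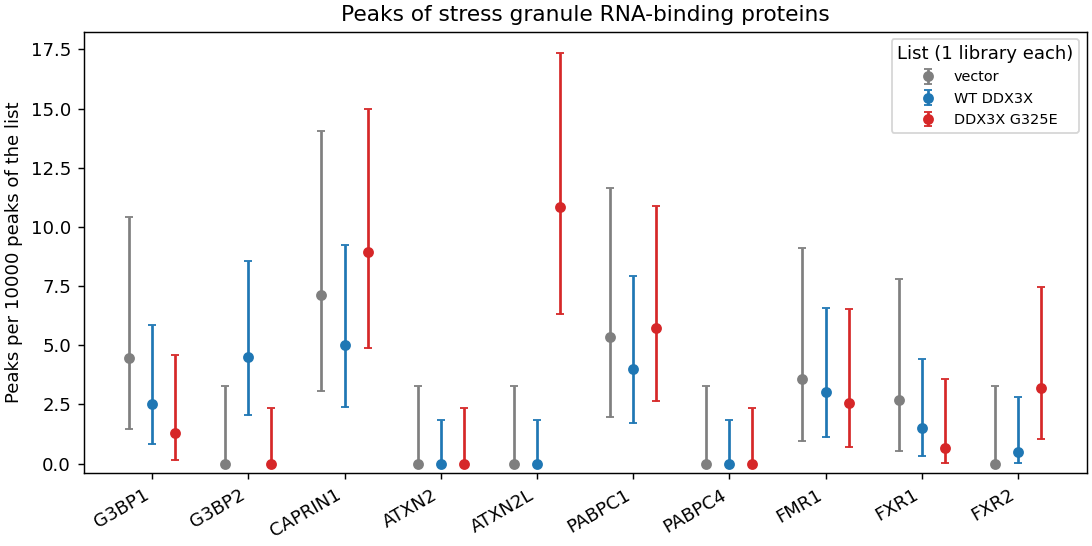
Peaks of each gene per 10000 peaks of its list (vertical axis) for vector, WT DDX3X and DDX3X G325E, 1 library each, with exact Poisson 95% intervals of counting error as bars. ATXN2L stands at 10.8 in G325E and at 0 in the other lists, G3BP2 stands at 4.52 in WT and at 0 in the others, and ATXN2L is the only gene whose intervals do not overlap between lists.

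The granule scaffold genes differed in where and in which list they were occupied. G3BP1 (GRCh37 chromosome 5, 151150606 to 151192472, plus strand) held 5 peaks in vector, 5 in WT and 2 in G325E, or 4.46, 2.51 and 1.28 per 10000. These levels order as vector, WT and G325E, but the intervals of all 3 overlap, and the ratio of G325E to WT was 0.508 (0.0484 to 3.10). All 12 peaks fell in coding sequence. In vector they lay in exon 7 (codons 205 and 234) and in the last exon, 12 (codons 400, 418 and 448). WT held 4 peaks in exons 6 and 7 (codons 158 to 238) and 1 in exon 12 at codon 419. G325E held peaks in exon 12 only, at codons 419 and 448. The peak around codon 419 was thus the one that all 3 lists shared.

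G3BP2 (chromosome 4, 76567033 to 76649773, minus strand) held 0 peaks in vector, 9 in WT and 0 in G325E. With the empty lists set at 3 peaks, the WT level was 2.36-fold that of G325E and 1.69-fold that of vector. The exact intervals of these ratios, with the empty lists at 0 peaks, ran upwards from 1.55 and 1.11. All 9 peaks lay in coding exons 6, 7, 9 and 12, on the gene's own strand, between codons 159 and 474. In the WT list both paralogs held peaks in exons 6, 7 and 12, whereas G3BP2 alone held peaks in exon 9 (codons 280, 295 and 306). The proteins were not aligned, so codon numbers of the paralogs are not matched here. None of the 29-mers of the G3BP2 coding sequence occurred elsewhere in the genome, against 12.9% for G3BP1, so no such stretch of G3BP1 has an exact copy in G3BP2. Of the 9 peaks, 6 were assigned through the RefSeq table, and the lists themselves place them at the neighbouring gene CDKL2. With the lists' own pairs alone G3BP2 keeps 3 peaks, too few for the 2-fold rule used below.

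The windows below show 30 nt of coding sequence (GRCh37, given 5′ to 3′ on the gene's strand) at the middle of peaks that all 3 lists shared, and of peaks that 1 or 2 lists held, with in-frame glycine (GGN) and arginine (CGN) codons in capitals. The arginine codons AGA and AGG are left in lower case and were not counted. The windows are shown so that sites common to the lists can be read beside sites that some lists lack.
G3BP1 exon 12, codons 415 to 424, chr5:151183494-151183523 (+), peak in all 3 lists: actCGAgctgccagggaaGGCgacCGACGA
FXR1 exon 14, codons 433 to 442, chr3:180685937-180685966 (+), peak in all 3 lists: CGAcatcagCGTgacagcaggagaCGCcca
G3BP1 exon 7, codons 206 to 215, chr5:151176864-151176893 (+), vector and WT: cctgtatctgaaatccaagaggaaaagcct
G3BP2 exon 7, codons 200 to 209, chr4:76580349-76580378 (-), WT alone: ccagaatctgaaacaaagactgaagagctg
CAPRIN1 exon 2, codons 36 to 45, chr11:34074073-34074102 (+), vector and G325E: gcgccggcttctcagcaccccgcaaccGGC
ATXN2L exon 1, codons 20 to 29, chr16:28834638-28834667 (+), G325E alone: caacaggccgtggccCGTCGGccccccGGG

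The G3BP1 exon 12 window held 4 such codons of 10 and the FXR1 window 3 of 10, whereas the exon 7 windows of G3BP1 and G3BP2 held 0. G and C made up 66.7% and 63.3% of the shared windows and 43.3% of each exon 7 window. Over all codons that G3BP1 peaks touched, GGN and CGN made up 11.8% in vector, 8% in WT and 33.3% in G325E, where only 27 codons were covered, against 12.2% of the whole coding sequence. Over the 10 genes the share was 13.3% in vector, 12.8% in WT and 20.2% in G325E, against 11.6% of all their codons. The contrast did not extend to every gene. GGN and CGN made up 14.9% of the codons under the WT peaks of G3BP2, none of which were in G325E, against 14.1% of its coding sequence. They made up 6.06%, 5.56% and 5.88% under the recurring PABPC1 peaks in vector, WT and G325E, against 11.2% of its coding sequence. GGN and CGN codons are rich in G and C, so their share is not independent of the base composition given below. The windows were picked with these peaks in view, so this is a description. No window is shown for the coding peaks of PABPC1 that all 3 lists shared.

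CAPRIN1 (chromosome 11, 34073278 to 34124157, plus strand), the partner of the G3BP proteins, held 8 peaks in vector, 10 in WT and 14 in G325E, or 7.13, 5.02 and 8.93 per 10000. The ratio of G325E to WT was 1.78 (0.735 to 4.48), so the lists were not distinguishable at these counts. Most of its peaks lay at the 5′ end of the gene, over the promoter, the 5′-UTR, exon 2, which holds the start codon, and the first introns. G325E held 3 coding peaks, at codons 9, 40 and 67 of exon 2, and vector held 1, at codon 56. WT held coding peaks only further in, at codon 282 of exon 8 and codon 303 of exon 9. The places shared by all lists numbered 3, the transcript's first bases, the border of exon 1 and intron 1, and a 20-bp intronic peak, which the vector and G325E lists put on the minus strand and the WT list on the plus strand. The WT list skips 2 peak numbers across intron 1 and exon 2, and the vector list skips 4, so a peak missing there from a list may be a row that the list does not hold.

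ATXN2L (chromosome 16, 28834320 to 28848558, plus strand), the paralog of ataxin-2, held 0 peaks in vector, 0 in WT and 17 in G325E. With the empty lists set at 3 peaks, the G325E level was 7.20-fold that of WT and 4.05-fold that of vector. The exact intervals of these ratios, with the empty lists at 0 peaks, ran upwards from 5.24 and 2.95. The peaks formed 2 clusters. One ran from the promoter (3 peaks) and 5′-UTR (1 peak) through exon 1 (5 peaks, codons 24 to 89), and 3 of its peaks were on the strand opposite to the gene. The other held 8 peaks in exons 16 to 18, codons 684 to 765, all on the gene's strand. Neither the vector nor the WT list skips a peak number within the gene, so no row is missing from them there. The lists name MIR4721, a microRNA gene, for the 8 downstream peaks, and the RefSeq transcript in their annotation is that of ATXN2L. Without them ATXN2L keeps 9 peaks in G325E and 0 in the other lists. ATXN2 (chromosome 12, 111881289 to 112037480) held 0 peaks throughout, and no peak of any gene lay within it.

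PABPC1, on the minus strand of chromosome 8, held 6 peaks in vector, 8 in WT and 9 in G325E, or 5.35, 4.02 and 5.74 per 10000. The ratio of G325E to WT was 1.43 (0.489 to 4.26) and the intervals of all 3 lists overlapped. Every peak lay in exon 1 or intron 1 of a gene of 15 exons, with coding peaks between codons 2 and 61. A peak covered the start codon in each list. Of its peaks, 4 of 6 in vector, 5 of 8 in WT and 4 of 9 in G325E overlapped a peak in both other lists. In G325E 3 peaks had no partner in either list. Of these 2 lay in intron 1, where neither other list skips a peak number, and 1 of 157 bp lay in the 5′-UTR, where the vector and WT lists each skip 1. Of the 29-mers in the PABPC1 coding sequence, 54.2% occur more than once in the genome, the most of any of the 10 genes, and in exon 1 the share was 37.0%. Footprints from those stretches could not be placed uniquely. The share was 12.5% in exon 3 and 3.64% in exon 6, and 43.3% to 91.3% in the other later coding exons, all without a peak. Peaks with a repeated central 29-mer numbered 1 in vector, 2 in WT and 1 in G325E. The part of repeats in the lack of peaks beyond exon 1 was not tested. PABPC4 (chromosome 1, 40026381 to 40042462), where 6.09% of coding 29-mers were repeated, held 0 peaks in every list.

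**Figure D2:**
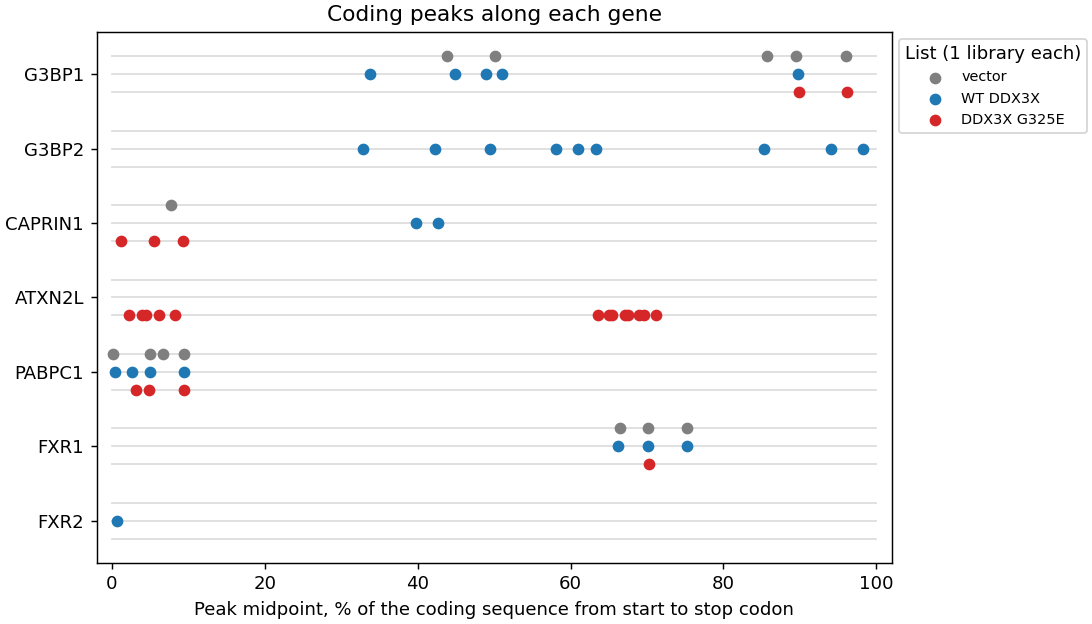
Midpoints of coding peaks as a percent of the coding sequence from start to stop codon (horizontal axis) for the 7 genes with a coding peak, with 1 line per list from vector (top) to WT DDX3X (middle) and DDX3X G325E (bottom). G3BP1 keeps only its last sites in G325E, G3BP2 is marked in WT alone and ATXN2L in G325E alone, and PABPC1 is marked at the start in every list.

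FMR1 (chromosome X, 146993437 to 147032645, plus strand) held 4 peaks in vector, 6 in WT and 4 in G325E, or 3.57, 3.01 and 2.55 per 10000. None was in coding sequence, and 13 of the 14 were listed on the strand opposite to the gene, in its promoter and first intron. They were 4 of 4 in vector, 6 of 6 in WT and 3 of 4 in G325E. Taken at that strand they would not be footprints of the annotated FMR1 mRNA. The listed strand is uncertain, since the lists put a shared CAPRIN1 peak on different strands. Of all peaks on genes with a known strand, 16.6% in vector, 16.7% in WT and 24% in G325E were listed opposite to the gene. The log2 difference of G325E minus WT was −0.19 over all FMR1 peaks and turned to 2.07 with peaks on the gene's strand only, 1.35 by bases covered, 1.59 over equal numbers of longest peaks and 0.71 over exon and UTR classes. The single peak on the FMR1 strand was in G325E, 201 bp long at chromosome X, 146993479 to 146993679, in the 5′-UTR. It spans the CGG repeat for which the gene is known. In the reference the whole 201 bp of the peak hold 32 CGG triplets, of which the longest unbroken run is 10. G and C make up 88.6% of its bases. The vector list skips 2 peak numbers there and the WT list 1, so whether those lists lacked such a peak cannot be told. Of the 4 FMR1 peaks in G325E, 1 had a central 29-mer that is repeated in the genome, with 4 occurrences.

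FXR1 (chromosome 3, 180585929 to 180700541, plus strand) held 3 peaks in vector, 3 in WT and 1 in G325E, or 2.67, 1.51 and 0.638 per 10000. The ratio of G325E to WT was 0.423 (0.00807 to 5.27), so no difference was detectable. All 7 peaks lay in exon 14 between codons 411 and 467, and the peak near codon 437, shown above, was common to the 3 lists. The lists name the neighbouring gene DNAJC19 for all 7, and by that name FXR1 would hold 0. FXR2 (chromosome 17, 7494548 to 7518215, minus strand) held 0 peaks in vector, 1 in WT and 5 in G325E. The ratio of G325E to WT was 6.35 (0.711 to 300.4), and against vector the interval ran from 0.656 upwards, so neither difference was outside counting error. In G325E 4 peaks lay in the 5′-UTR and 1 in the promoter, and 3 of the 5 were on the gene's strand. The WT peak was on the opposite strand. The WT list skips 2 peak numbers at the place of 4 of the 5 G325E peaks, whereas the vector list skips none.

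Compared over the whole lists, 2 members were at least 2-fold higher in G325E than in WT and 1 was at least 2-fold lower, out of 7 with at least 5 peaks in the pair. The higher ones were ATXN2L and FXR2 and the lower one G3BP2. Over all 2561 genes of that comparison 24.9% were higher and 27.5% lower, so the members' counts were near the background. Against vector, ATXN2L and FXR2 were higher in G325E and G3BP1 was lower, among 6 members, where 32.6% of 2094 genes were higher and 21.7% lower. Between WT and vector, G3BP2 was higher and 0 of 6 members were lower, where 25.8% of 2217 genes were higher and 18.0% lower. The median log2 difference of members was 0.51 for G325E minus WT (all genes, 0.14), 0.18 for G325E minus vector (−0.05) and −0.48 for WT minus vector (−0.34). These calls add 0.5 peaks to each list. With empty lists set at 3 peaks instead, FXR2 was no longer 2-fold above vector in G325E, nor G3BP2 in WT. The other calls held. The shares over all genes then became 26.1% higher and 15.7% lower for G325E against WT. They were 17.2% and 23.2% for G325E against vector, and 8.71% and 18.0% for WT against vector. Without peaks at places where the other list skips a number, the log2 difference of FXR2 in G325E minus WT was 0.69 instead of 2.22, and its call was lost. These comparisons share their lists. With 1 library a group, fewer cells with footprints and fewer footprints per cell cannot be told apart.

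The sum over members was 1.57 times as high in G325E as in WT (1.03 to 2.42), but without ATXN2L the ratio was 1.06 (0.656 to 1.70). Against vector it was 1.43 (0.877 to 2.39) with ATXN2L and 0.963 without, and WT against vector was 0.910 (0.545 to 1.55). Over all genes with peaks in both lists, the median log2 difference after scaling by list size was 0.35 in G325E minus WT, −0.48 in G325E minus vector and −0.61 in WT minus vector. For both G325E comparisons the median gene held equal numbers of peaks in both lists, so these medians only undo the scaling by list size. Relative to the medians the members' summed log2 differences were 0.30, 0.99 and 0.46, so the direction of the last one depends on the scaling.

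The 28 other stress granule genes that were listed beside the members held 66 peaks in vector, 136 in WT and 85 in G325E, and 11 of them held 0 in every list. Their ratio of G325E to WT was 0.794 (0.598 to 1.05). Among the 15 with at least 5 peaks in that pair, NUFIP2 and LSM14A were at least 2-fold higher in G325E, and 7 were at least 2-fold lower, among them TIAL1, PRRC2C, STAU1, ELAVL1 and IGF2BP1 (all genes, 24.9% and 27.5%). The other comparisons gave 3 higher and 2 lower of 10 for G325E and vector (all genes, 32.6% and 21.7%), and 6 higher and 0 lower of 13 for WT and vector (25.8% and 18.0%). SERBP1, an mRNA-binding protein of the ribosome, held 12, 21 and 18 peaks in vector, WT and G325E. YBX1, a Y-box protein that packages mRNA, held 11, 12 and 17. USP10, which competes with CAPRIN1 for G3BP1, held 2, 12 and 18.

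Along the mRNA, the 5′-UTR and promoter-TSS classes together took 15.4% of member peaks in vector (6.15% to 33.5%), 16.7% in WT (8.32% to 30.6%) and 32.7% in G325E (21.5% to 46.2%). Over all peaks these shares were 28.1%, 26.3% and 43.4%, so both were highest in G325E. The exon class took 50%, 57.1% and 42.3% of member peaks. In G325E 13 of the 22 exon peaks were those of ATXN2L, and the exon share was 25.7% without it. Introns took 34.6%, 26.2% and 23.1%, against 9.89%, 11.1% and 13.1% of all peaks, and the member introns were those of CAPRIN1, PABPC1 and FMR1. The FMR1 peak over the CGG repeat was the 1 peak in a non-coding class. No member held a peak in a 3′-UTR or at a transcription termination site.

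**Figure D3:**
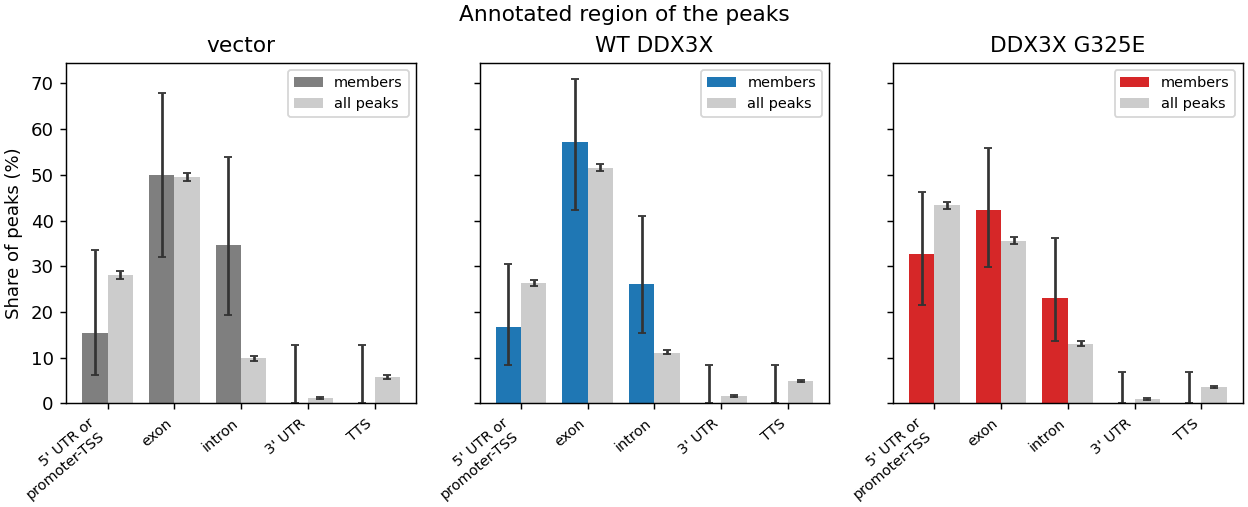
Share of peaks (percent, vertical axis) in each annotated region for the 10 genes (coloured bars) and for all peaks of the list (grey bars), with 95% Wilson intervals as error bars and 1 panel per list. Members carry more intron peaks than the list as a whole in all 3 panels, and the 5′-UTR and promoter-TSS share of both is highest in G325E.

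Within coding sequence the intervals of the members overlapped between lists. Of the coding peaks, 46.2% in vector (6 of 13), 54.2% in WT (13 of 24) and 50% in G325E (11 of 22) lay in the first 50% of the coding sequence. Over all genes the shares were 49.8%, 47.8% and 62.7%. Coding peaks within the first 100 codons numbered 5, 5 and 11. In G325E they came from ATXN2L, CAPRIN1 and PABPC1. The start codon was covered in PABPC1 in each list, and in CAPRIN1 and FXR2 in G325E alone. That is 1 of 5, 1 of 7 and 3 of 7 members with a peak, against 26.8%, 25.5% and 38.9% of all genes with a peak. At the CAPRIN1 start codon the vector list skips 4 peak numbers and the WT list 1, so its absence there may be a missing row.

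Peaks of members in G325E lay in sequence richer in G and C. Over the 31 bases at the midpoint the mean was 65.1% in vector (SD 14.9, 26 peaks), 60.1% in WT (SD 14.0, 42 peaks) and 74.8% in G325E (SD 11.9, 52 peaks). Over all peaks it was 62.7%, 62.3% and 73.1%, so the shift was one of the lists as a whole. Within the exon class the members' means were 56.3%, 53.6% and 68.8%. The genes themselves differed in the same property. The coding sequences of ATXN2L (60.4% G and C) and FXR2 (56.3%), whose peaks lay mostly in G325E, were the richest of the 10, and those of G3BP2 (44.9%) and FXR1 (42.5%) were among the 3 poorest with FMR1 (43.4%). Base composition thus moved with the list, and its part in the differences between members was not tested.

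**Figure D4:**
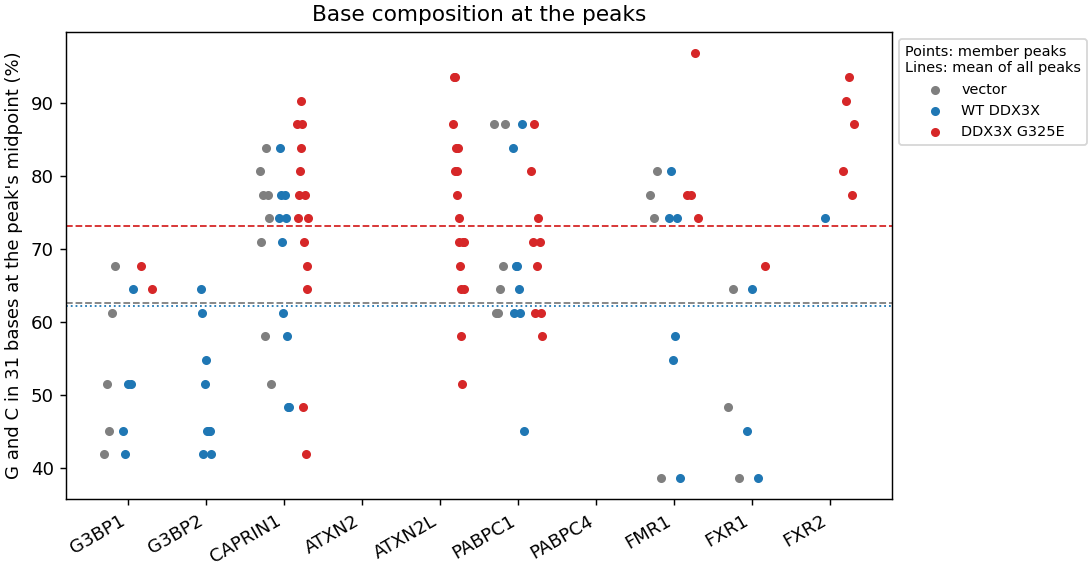
G and C content of the 31 bases at the midpoint of each member peak (vertical axis, percent), by gene and list, with the mean over all peaks of each list as a horizontal line (62.7% in vector, 62.3% in WT DDX3X and 73.1% in DDX3X G325E). The G325E peaks of ATXN2L, FXR2 and CAPRIN1 lie mostly above 60%, and the WT peaks of G3BP2 lie between 41.9% and 64.5%.

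Overlap of at least 1 bp showed which sites recurred. Of the vector peaks on members 73.1% overlapped a WT peak, close to the 76.8% of all vector peaks, and 50% overlapped a G325E peak (all, 48.1%). Of the WT peaks 52.4% overlapped a vector peak (all, 41.6%) and 40.5% a G325E peak (all, 34.9%). Of the G325E peaks 28.8% overlapped a vector peak (all, 35.4%) and 28.8% a WT peak (all, 47.3%). ATXN2L accounted for 17 of the 37 G325E peaks with no WT partner. Another 13 of the 37 lay where the WT list skips a peak number, which is 35.1%, against 41.0% of all G325E peaks with no WT partner. These 13 belonged to CAPRIN1, PABPC1, FMR1 and FXR2. Leaving out ATXN2L and G3BP2, they were 13 of 20, or 65% (43.3% to 81.9%). Several of these peaks lay in the same gap, and the WT list skips only 2 numbers in CAPRIN1 and 2 at FXR2. The missing rows were thus fewer than the peaks, and the interval treats neighbouring peaks as independent. How many of these peaks match a row that the WT list does not hold cannot be told. In the vector list 8 of the 37 G325E peaks with no partner lay at a skipped number (21.6%, against 38% of all). Leaving out the same genes, they were 8 of 20, or 40% (21.9% to 61.3%).

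Among all genes, those with the numbers of peaks nearest to G3BP1 in the 3 lists were EBNA1BP2 (5, 5 and 2, as in G3BP1), UBE2T, NUCKS1, FBXO28 and NDRG1, by the distance between log2 scaled numbers over the 3 lists. The nearest to CAPRIN1 were C9orf69 (8, 11 and 13), NEFL, PPP1R14B, PPP1R35 and ZSWIM6. With 3 lists and small numbers such likeness is common, and 8 genes lay within the fifth distance from G3BP1.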

How the data were processed

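Ribosome profiling was performed by the authors in HEK293T cells, 1 library per construct, and samples were grouped by their titles. The deposited lists give, for each peak, positions (hg19, which is GRCh37), strand, annotated region, distance to the transcription start site and nearest gene. They hold no read count. As the study and labels describe, adapters were trimmed (cutadapt), reads were aligned with BWA 0.5.5 and duplicates removed, and peaks were called on coverage in each sample and reviewed by eye. HOMER annotated them, in a version not given in the sources used here.

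The members and lists were chosen with earlier results of these data known. All 10 members are named. The 28 further stress granule genes are given by counts, with values for the 4 with most peaks (1 of which is not reported here), and the 5 genes most like G3BP1 and CAPRIN1 are named. RefSeq transcripts were matched to genes by the lists' own pairs, then by a RefSeq table (names only, assembly GRCh38.p14), then by the gene named. The RefSeq table gave 8, 17 and 21 member peaks in vector, WT and G325E. Peaks with End before Start (163, 272 and 236) are all listed on the minus strand, so their strand was not used. Codons are counted from 1 at the start codon of the GENCODE release 44 canonical transcript. Log2 differences used a pseudocount of 0.5 peaks, and the 2-fold rule needed 5 peaks in the pair of lists. Reference sequence came from GRCh37. Software was Python 3.11.15, numpy 2.4.6, scipy 1.17.1, pandas 2.3.3, pysam 0.24.0 and matplotlib 3.10.9. No p-value was computed. The alternatives were gene assignment, region classes, strand, scaling, bases covered, peak length, pseudocount, fold limit and overlap.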

Additional observations from a re-analysis of the deposited data

How the results depend on the processing

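With 1 library per construct, leaving out a replicate was not possible. No paired analysis was possible because each group has 1 sample and no test was run. The members' summed log2 difference ranged from 0.09 (without ATXN2L) to 0.81 for G325E minus WT, from −0.06 (without ATXN2L) to 0.99 for G325E minus vector, and from −0.44 to 0.46 (scaled by the median per-gene ratio) for WT minus vector. The count of members at least 2-fold lower in G325E than in WT was 0 instead of 1 with genes taken from the gene name alone or from the lists' own pairs, since G3BP2 then keeps 3 peaks, and 2 with the median per-gene scaling, which adds G3BP1. With the gene name alone CAPRIN1 joins the members higher in G325E than in WT, 3 instead of 2, and without peaks at skipped numbers FXR2 leaves them, 1 instead of 2. With G3BP2 at 3 peaks the count higher in WT than in vector was also 0 instead of 1 under both assignments, and it was 0 with empty lists set at 3 peaks. Of all genes 26.3% were higher with the lists' own pairs and 8.71% with empty lists set at 3 peaks. In G325E against vector, the count higher was 1 instead of 2 with exon and UTR classes only or with empty lists set at 3 peaks, and the count lower was 0 instead of 1 at a 4-fold limit. Of all genes 24.0% and 17.2% were higher at the former settings. The share over all genes was not computed for the gene name alone, the 4-fold limit or the lists without peaks at skipped numbers. Without ATXN2L the exon share in G325E was 25.7% instead of 42.3%. The other shares of regions, positions and overlaps stayed within their intervals. The use of the lists' own pairs, leaving out ATXN2L, leaving out peaks at skipped numbers and setting empty lists at 3 peaks were chosen after seeing the data. The number of peaks limits every value, and a gene under 5 peaks in a pair gives no call. Read depth, which differed between the libraries, was not taken into account.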
